A study of Mus musculus with 32 samples.

Results

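The 500 probe sets described here are those that differed most between 8 mouse gliomas of 1 genotype, which lack p53. They were taken from 18328 probe sets measured by microarray. A probe set was eligible when its mean log2 value over p53 gliomas 2 to 9 was at least 6, which 11315 were, and the 500 eligible probe sets with the largest standard deviation (SD) over these 8 tumours were kept. Glioma 1 of the same genotype was left out by that rule because its profile lay close to normal forebrain. The members were thus selected on the log2 values of the 8 tumours, and their spread and shared profiles in these tumours are given as descriptions without a test. Of the 500, 478 matched exactly 1 gene, 12 matched several and 10 matched none, and the named ones covered 468 genes, 10 of them with more than 1 probe set.

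The 9 p53 gliomas were labelled hGFAP-cre;p53flox/flox: floxed p53 alleles with Cre recombinase under the human GFAP promoter, which is active in neural progenitors and astroglia. They were hybridised in a set titled Z2, together with 4 gliomas of genotype hGFAP-cre;p53flox/flox;Nf1KO/+ (p53 Nf1KO gliomas), which carry the same alleles plus 1 null allele of the RAS inhibitor Nf1, and 4 wild-type forebrains. A second set, Z1, held 9 gliomas of genotype hGFAP-cre;p53KO/+;Nf1+/flox, here called cis p53/Nf1 gliomas as a working name, and 3 wild-type forebrains. All gliomas shared hGFAP-cre and at least 1 mutant p53 allele, and the controls carried neither. All gliomas were labelled malignant. The labels gave no age, sex or strain and did not state that each array came from its own animal, so p-values measure the spread between these arrays.

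High-grade glioma is a mixture of tumour cells, which often resemble oligodendrocyte progenitors or astrocytes, with invaded neurons, blood vessels, microglia and infiltrating myeloid cells. Loss of p53 removes a brake on cells with damaged genomes, and gliomas are known for high expression of receptor tyrosine kinases such as Met and of their RAS effectors. In tissue RNA a lower level of a gene can stand for fewer cells of a type or for less RNA per cell, and these cannot be told apart here.

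Array medians of the 8 tumours ran from 6.98 to 7.06 on the log2 scale, and over all probe sets any 2 of the tumours correlated at 0.934 to 0.982. No 2 arrays were identical. Trp53 itself read 5.57 to 6.32 in gliomas 2 to 9 and 5.70 to 6.52 in the Z2 forebrains, overlapping ranges. No source used here places its probes relative to the deleted part, so this level does not check the labels. Cdkn2a, a cell-cycle inhibitor, read 7.69 to 9.18 in gliomas 2 to 9 against 2.98 to 3.14 in forebrain. Sets Z1 and Z2 lie on different scales, so levels are not compared between them.

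The SD of the 500 ran from 1.12 to 4.51 with a median of 1.401, against 0.334 for all eligible probe sets. The distance between the highest and the lowest tumour was 2.61 to 9.40 on the log2 scale, with a median of 4.12, and 282 of the 500 spanned more than 4, a 16-fold difference. Just inside the threshold lay Il1rap (SD 1.122), Fezf2 (1.120) and Olfm1 (1.120). Just outside lay Abca8a (1.119), Grm3 (1.119) and Fadd (1.118). Among probe sets naming 1 gene, the 5 genes with the largest spread were Xist, the RNA of the inactive X chromosome, Cnmd, a cartilage matrix protein, Igf2, a growth factor, Ifi202b, an interferon-inducible protein, and the synaptic vesicle protein Mal2.

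The tumours departed from forebrain to very different degrees over these probe sets. The median absolute log2 difference from the Z2 forebrain mean was 0.960 in glioma 4, 0.974 in glioma 5, 1.43 in glioma 3, 1.503 in glioma 7, 1.96 in glioma 6, 2.72 in glioma 8, 2.82 in glioma 2 and 3.59 in glioma 9. In glioma 1 it was 0.299. All 8 tumours lay above every Z2 forebrain in 56 of the 500 (11.2%), beside 19.0% of eligible probe sets, and all 8 lay below every forebrain in 137 (27.4%), beside 16.7%. In 143 (28.6%, beside 25.8%) some tumours lay above and others below the forebrain range. Glioma 9 held the lowest value of the 8 for 242 of the 500. Glioma 4 held the highest value for 112, glioma 5 for 109 and glioma 7 for 96. The largest correlation group described below supplied 211 of the 242, 102 of the 112, 72 of the 109 and 43 of the 96. The same counts over all eligible probe sets are not given here, so these describe the 500 alone.

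The profiles of the 500 were joined by average linkage on 1 minus Pearson's r over the 8 tumours. With the tree divided at 0.5, 421 probe sets fell into 10 correlation groups of at least 10 probe sets and 79 fell outside them. The groups are numbered by size and named by their genes with the largest SD.

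**Figure D1:**
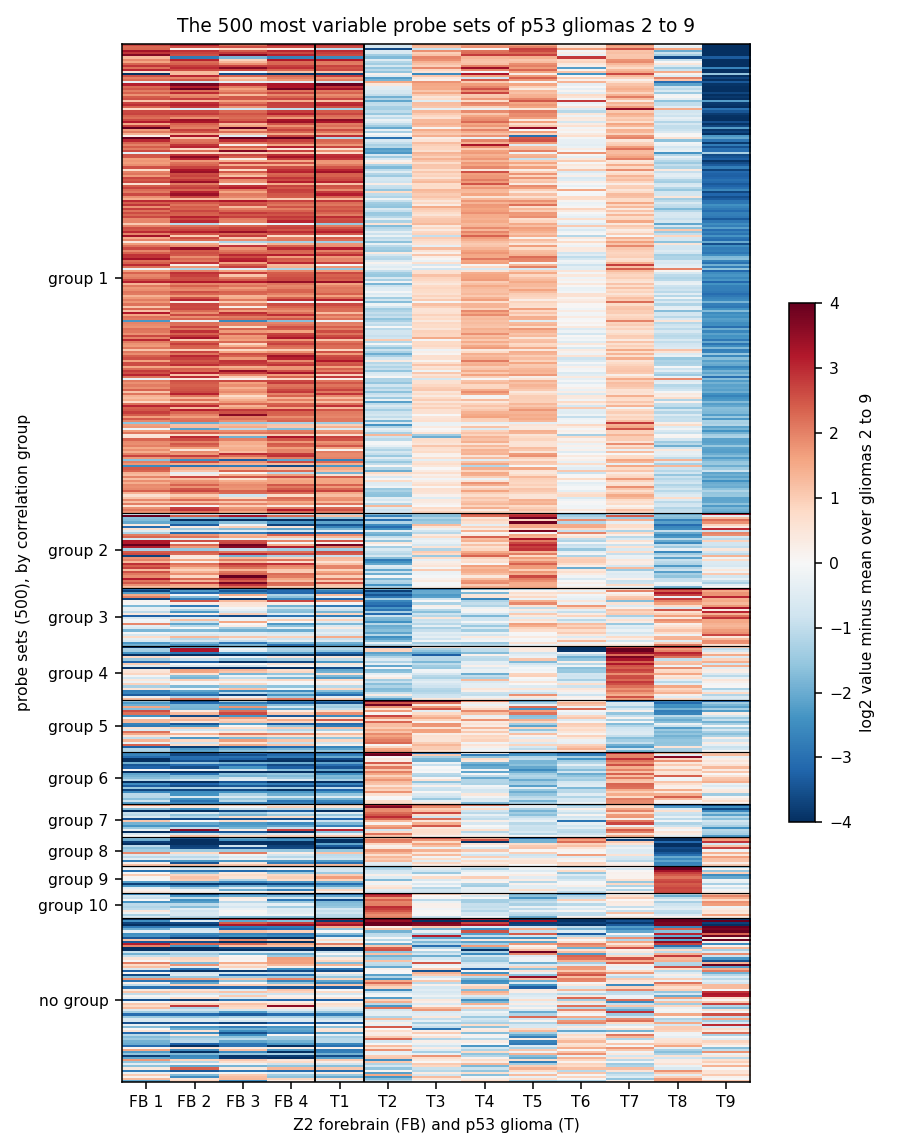
Each line is 1 of the 500 probe sets and each column 1 array: 4 Z2 forebrains (FB), p53 glioma 1 and p53 gliomas 2 to 9 (T). Colour gives the log2 value minus the mean over gliomas 2 to 9, with values beyond 4 either way drawn as 4, and lines between rows separate the correlation groups. Group 1, with 226 probe sets, is high in forebrain and glioma 1 and lowest in glioma 9, and smaller blocks are highest in gliomas 5, 7, 8 or 2.

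The largest group held many neuronal genes. Its 226 probe sets included the vesicle protein Mal2, the potassium channel Kcnc2, the calcium buffer Calb1, the vesicular glutamate transporter Slc17a7, the neuropeptides Vip, Sst and Npy, and the GABA-synthesising enzyme Gad2. The group mean was 4.94 in glioma 9, 6.78 in glioma 2, 7.01 in glioma 8 and 7.72 in glioma 6, and between 8.33 and 8.98 in gliomas 3, 4, 5 and 7. The 4 Z2 forebrains read 9.43 to 9.77 and glioma 1 read 9.58. The ordering of tumours was shared by the members: 211 of the 226 were lowest in glioma 9, and 102 were highest in glioma 4 and 72 in glioma 5.

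Mal2 read 7.73, 9.92, 10.14, 10.04, 8.75, 10.17, 8.33 and 2.11 in gliomas 2 to 9 in that order, and 10.71 to 11.49 in forebrain. Kcnc2 read 7.88, 9.89, 10.45, 10.60, 9.15, 10.12, 8.22 and 2.39, and 10.87 to 11.24 in forebrain. For both genes 7 of the 8 tumours lay between 7.73 and 10.60, while glioma 9 lay near the bottom of its array's scale, whose lowest value was 1.42. Slc17a7, which loads glutamate into vesicles of cortical excitatory neurons, read 8.58, 11.11, 10.84, 10.97, 10.62, 11.61, 9.71 and 4.36. In gliomas 3 and 7 it was within the forebrain range of 11.06 to 11.98, and in glioma 9 it was the furthest below it. Sst, the peptide of a class of inhibitory interneurons, read 8.53, 11.07, 11.11, 11.77, 10.37, 11.24, 10.35 and 4.85, and Npy read 9.05, 11.15, 10.54, 12.23, 11.74, 12.18, 12.13 and 6.01. Both were lowest in glioma 9 and next lowest in glioma 2, and Npy was within or above its forebrain range of 10.53 to 11.94 in the other 6.

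Not every member of the group was neuronal. Gjb6, a gap junction protein of astrocytes, read 5.74, 6.95, 8.39, 8.94, 6.06, 6.86, 4.76 and 3.48, and Mobp, a myelin protein, read 7.74, 8.45, 9.89, 10.45, 8.57, 10.70, 8.05 and 6.33 by the more variable of its 2 members. Gjb6 was highest in glioma 5 and Mobp in glioma 7, and both were lowest in glioma 9. The cell-cycle inhibitor Cdkn1c, an imprinted gene, read 9.01, 9.29, 8.52, 7.61, 8.84, 8.17, 4.44 and 4.10 and was low in gliomas 8 and 9. Fndc9, a membrane protein, was low in gliomas 2 and 9 (3.93 and 3.48) and otherwise 6.64 to 10.28.

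Counts of gene lists are given over list genes with a mean of at least 6, since no other could be a member, and the 500 were 4.42% of all eligible probe sets. Of 31 eligible mature neuron markers 19 were among the 500. The mean of that list was 6.27 in glioma 9, 7.81 in glioma 2, 8.22 in glioma 8, 8.72 in glioma 6 and 9.33 to 9.83 in the other 4, against 10.41 to 10.65 in forebrain and 10.48 in glioma 1. Of 30 eligible mitosis genes, none was among the 500. Their mean was 9.51, 9.38, 7.87, 8.27, 9.004, 8.12, 9.21 and 9.14 in gliomas 2 to 9 and 5.40 in glioma 1. The 3 tumours with the lowest mitosis mean, gliomas 4, 7 and 5, were also the 3 with the most neuron marker RNA apart from glioma 1. The part of tissue composition in group 1 was not tested. Lists of interferon response, DNA replication, neural stem cell and MHC class II genes likewise had no gene among the 500, of 24, 26, 15 and 6 eligible. At a share of 4.42% lists of these sizes would hold few or none, so these counts do not show low variation. The median SD of the measured genes was 0.665 for mitosis, 0.494 for interferon response and 0.553 for DNA replication. It was 0.538 for neural stem cell and 0.677 for MHC class II genes, against 0.334 for all eligible probe sets. Only 1 of 19 T and NK cell genes was eligible, so that list says nothing about their variation. Of 15 eligible oligodendrocyte progenitor markers 1, the Notch ligand Dll3, was among the 500, a share near that of all eligible probe sets, and the list mean ran from 9.19 to 10.54 in the 8 tumours.

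**Figure D2:**
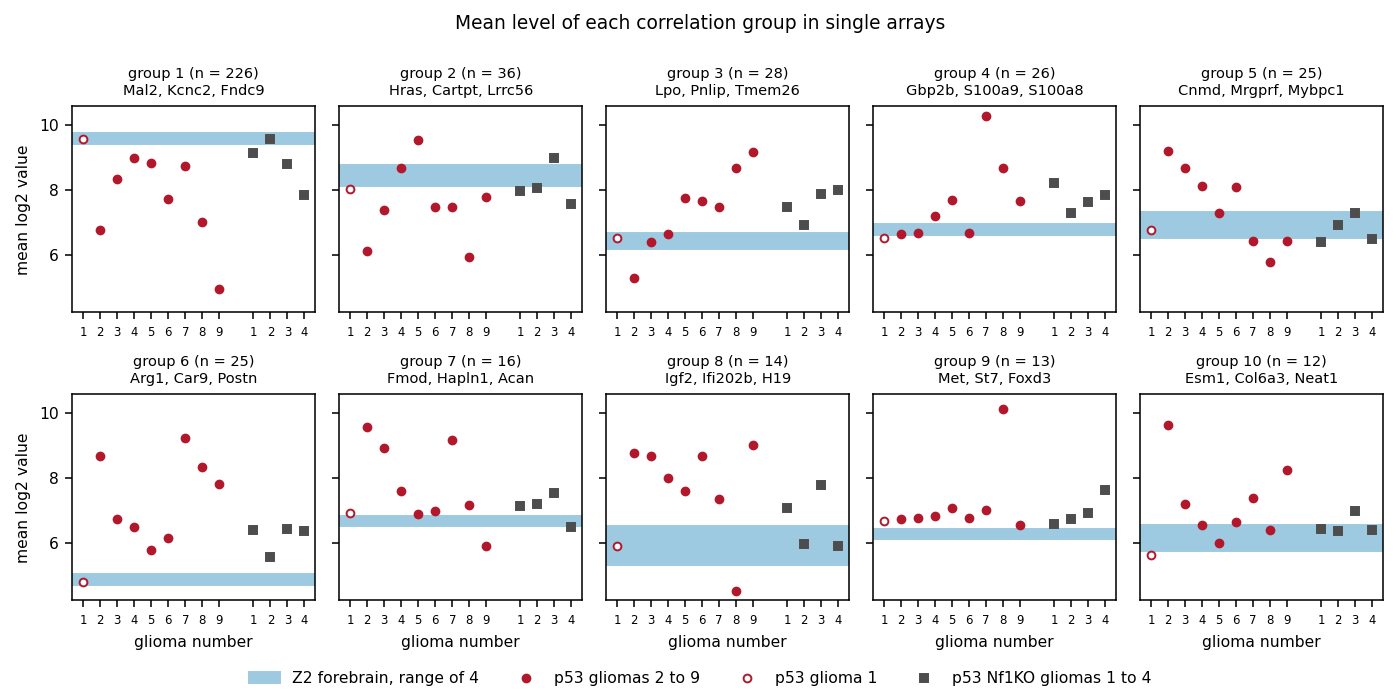
Mean log2 value of each correlation group in single arrays. Filled circles are p53 gliomas 2 to 9, the open circle is p53 glioma 1, squares are p53 Nf1KO gliomas 1 to 4, and the band spans the 4 Z2 forebrains. Group 1 falls from 8.98 in glioma 4 to 4.94 in glioma 9, and group 9 lies between 6.54 and 7.07 in 7 tumours and at 10.1 in glioma 8.

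Group 1 was then examined in gliomas that had no part in choosing it. Here limma was fitted to all 18328 probe sets, an adjusted p (Benjamini-Hochberg) under 0.05 made a call, and log2 differences carry the standard error of the fit. In the 9 cis p53/Nf1 gliomas against 3 Z1 forebrains, 250 of the 500 were called lower and 77 higher, beside 22.2% and 22.4% of all probe sets, that is 50% and 15.4% of the 500. The median difference was -1.16 over the 500 and 0.003 over all probe sets. Group 1 supplied 202 of the 250 lower calls. Mal2 differed by -6.31 ± 0.47 (SE), adjusted p = 5.43e-07, and Vip by -5.58 ± 0.24 (SE), adjusted p = 2.06e-08. All 34 measured mature neuron markers were called lower there, with a median difference of -4.501.

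In the 4 p53 Nf1KO gliomas against the 4 Z2 forebrains fewer of the 500 were called: 44 higher (8.8%, beside 5.40% of all probe sets) and 19 lower (3.8%, beside 2.58%). Of the 19, 16 belonged to group 1, among them Spock3, a proteoglycan, with -0.83 ± 0.19 (SE), adjusted p = 0.0377. Group 1 averaged 9.14, 9.58, 8.79 and 7.85 in p53 Nf1KO gliomas 1 to 4. Glioma 4 thus had the lowest group mean of that model, and glioma 2 was inside the forebrain range. Over the 500, p53 Nf1KO glioma 2 lay 0.458 from the forebrain mean, the other 3 lay 0.877 to 1.54 away. The calls depended on single arrays: without p53 Nf1KO glioma 2 they became 68 higher and 87 lower, without any one of the other 7 arrays 12 to 29 were higher, and the lower calls became 1 without any single forebrain or without p53 Nf1KO glioma 1, 8 without glioma 4 and 13 without glioma 3.

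A different pattern came from the end of chromosome 7 around Hras. Hras encodes a RAS protein, the class of signalling switches that Nf1 inactivates. It read 7.84, 8.01, 12.01, 12.24, 7.61, 8.33, 7.498 and 12.78 in gliomas 2 to 9, 8.75 to 9.05 in forebrain, and 8.18, 8.63, 8.05 and 7.28 in p53 Nf1KO gliomas. Gliomas 4, 5 and 9 stood more than 2 above every forebrain and the other 5 below every forebrain, with no value between. Genes that neighbour Hras on the chromosome were high in these tumours too, but in different combinations.

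Lrrc56, the next measured gene, read 6.90, 6.70, 8.45, 12.62, 6.86, 6.51, 6.23 and 9.19, and Rassf7, a RAS-association domain protein, read 6.66, 6.45, 8.53, 11.82, 6.71, 7.54, 5.72 and 9.72. Both were highest in glioma 5, next in glioma 9 and then in glioma 4. Rnh1, the ribonuclease inhibitor, read 9.43, 8.85, 10.89, 12.93, 8.54, 9.42, 9.72 and 10.54 and was highest in glioma 5. Deaf1, a transcription factor, read 9.65, 9.63, 11.27, 13.30, 9.05, 9.41, 8.96 and 8.96, and Tmem80 read 7.47, 7.05, 9.24, 11.60, 6.92, 6.63, 6.93 and 6.98. These last 2 genes were high in gliomas 5 and 4 and at the level of the remaining tumours in glioma 9.

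The extent of the raised stretch differed by tumour. In glioma 4 Phrf1 at 10.30, Irf7 at 9.79 and Taldo1 at 11.63 were the highest of the 8 tumours, and Ptdss2 at 9.60 was second to glioma 9. In glioma 5 Phrf1 and Taldo1 read 7.94 and 8.98, the lowest of the 8 tumours for both, although they lie between or beside the raised genes. Drd4, the dopamine D4 receptor, lies among them and read 9.33 in glioma 5 against 4.43 to 4.87 in the others. In glioma 9 Phrf1, the gene after Rassf7, read 9.23, inside the range of the other tumours, while Ptdss2 (9.67) and Lmntd2 (8.41, others 3.94 to 6.71) were highest there.

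The same neighbourhood was raised in 1 of the 9 cis p53/Nf1 gliomas, which had no part in the choice. In cis glioma 4 Hras read 14.001 against 9.94 to 10.54 in the other 8. Ptdss2 read 13.20 (9.20 to 9.98), Irf7, the interferon regulatory factor, 13.99 (8.01 to 10.31), Deaf1 12.998 (8.87 to 9.54) and Taldo1, a pentose phosphate enzyme, 14.26 (10.68 to 12.09). No value of the other 8 reached that of cis glioma 4 for any of these 5 genes. Each stood out in cis glioma 4 by the gap rule described with the single-tumour genes.

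**Figure D3:**
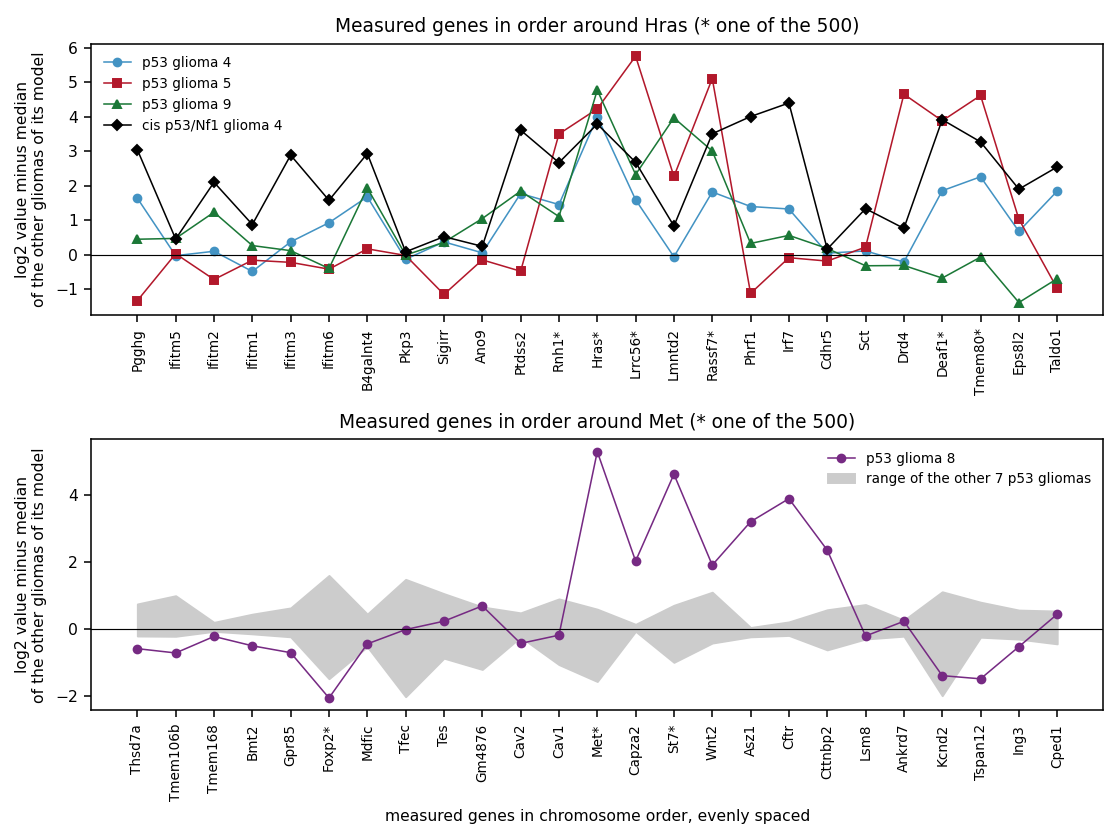
Log2 value of single tumours minus the median of the other gliomas of their model, for measured genes in chromosome order, evenly spaced. Above, the 25 genes centred on Hras in p53 gliomas 4, 5 and 9 and cis p53/Nf1 glioma 4; below, the 25 centred on Met in p53 glioma 8, with the range of the other 7 p53 gliomas in grey. The raised stretch in cis glioma 4 is wider than in gliomas 5 and 9, and in glioma 8 all genes from Met to Cttnbp2 lie above the grey range while Cav1 and Lsm8, the next genes on either side, lie within it.

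A run on chromosome 6 was high in glioma 8 alone. Met, the receptor tyrosine kinase for hepatocyte growth factor, read 5.44, 7.19, 6.605, 7.02, 6.15, 7.06, 11.88 and 5.69 in gliomas 2 to 9, with 5.80 to 6.57 in forebrain, 6.27, 7.71, 5.22 and 6.42 in p53 Nf1KO gliomas and 6.07 to 8.27 in the cis gliomas. St7, 2 measured genes further, read 6.51, 7.14, 6.49, 7.49, 7.55, 6.98, 11.74 and 7.83. For both genes glioma 8 lay more than 3 above the next tumour. Between them Capza2, an actin-capping subunit, read 12.32 in glioma 8 and 10.24 to 10.43 in the others. Beyond St7, Wnt2 read 5.48 (3.25 to 4.67 in the others), Asz1 6.09 (2.67 to 2.94), the chloride channel Cftr 6.56 (2.52 to 2.89) and Cttnbp2, by its variable probe set, 10.26 (6.398 to 8.38). So 7 consecutive measured genes were highest in glioma 8. On the flanks, Cav1 read 10.24 and Lsm8 9.56 in that tumour, inside the range of the other 7. DNA copy number was not analysed here.

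Met and St7 belonged to correlation group 9, whose 13 probe sets were all highest in glioma 8. The group mean was 10.1 there and 6.54 to 7.07 in the other 7 tumours. Other members lie elsewhere in the genome: Foxd3, a neural crest transcription factor, read 5.50, 5.49, 5.78, 5.74, 7.06, 6.33, 9.61 and 4.73, and Cda, cytidine deaminase, read 6.18, 5.39, 6.81, 6.80, 5.37, 7.05, 9.60 and 7.85. Mmp2, a matrix metalloprotease, and Sfrp1, a WNT antagonist, also belonged to it, Sfrp1 with 5.55, 6.80, 7.02, 5.61, 5.04, 6.18, 8.199 and 3.99. The margins of Foxd3, Cda and Sfrp1 in glioma 8 were smaller than that of Met. In the cis gliomas 5 of the 13 were called higher, beside 22.4% of all probe sets, Foxd3 among them with 2.74 ± 0.79 (SE), adjusted p = 0.0129, and Met was not called (0.34 ± 0.40 (SE), adjusted p = 0.534).

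The growth factor genes Fgf4 and Fgf15 neighbour each other on chromosome 7 and shared their highest tumour, glioma 9. Fgf4, which signals through FGF receptors in embryos, read 6.43, 7.26, 5.65, 5.55, 5.24, 4.01, 3.59 and 12.10 in gliomas 2 to 9 and 3.41 to 3.52 in forebrain. Glioma 9 stood 4.84 above the next tumour. Fgf4 also read 7.68 in glioma 1, more than in 7 of the 8 tumours. Fgf15, the neighbour, read 5.21, 9.32, 5.25, 5.47, 4.98, 4.93, 4.20 and 10.10 and was high in gliomas 3 and 9. Ccnd1, a G1 cyclin 2 measured genes beyond Fgf15, was not among the 500 and read 10.78 to 12.14, against 8.02 to 8.47 in forebrain. Glioma 9 was also highest for Ccnd1, Cttn (11.26), Fadd (10.71) and Ano1 (8.22), by smaller margins than for Fgf4. For the other measured genes from Cttn to Mrgprf it was not: Ppfia1, LTO1, Tpcn2 and Mrgprf were highest in glioma 2, and Fgf3 in glioma 5.

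Other single-tumour receptors and ligands followed no shared order. Igf1r, the receptor for insulin-like growth factors, read 10.34 in glioma 7 and 6.398 to 8.04 in the others, and 1 cis glioma (number 8) read 13.20 against 8.81 to 10.87. Its ligand Igf2 read 11.11, 12.16, 11.05, 6.37, 12.05, 8.83, 4.32 and 11.63, with 6.30 to 7.91 in forebrain. Gliomas 2, 3, 4, 6 and 9 were above every forebrain by more than 3, glioma 7 by less than 1, and gliomas 5 and 8 were within or below the range. H19, the noncoding RNA beside Igf2, which is expressed from the other parental allele, read 11.29, 10.07, 5.36, 7.41, 11.54, 10.36, 6.21 and 12.19, with 3.22 to 5.58 in forebrain. Among the 8 tumours the pair was high together in gliomas 2, 3, 6 and 9, low together in glioma 8, and opposite in glioma 4, which had high Igf2 and low H19. Against forebrain, glioma 8 had H19 above and Igf2 below every forebrain. In glioma 5 H19 was above every forebrain and Igf2 was within its range. Igf2 read 13.12 in cis glioma 4 and 7.69 to 8.79 in the other 8 cis gliomas. Of 15 eligible imprinted growth genes 6 were among the 500.

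Igf2 and H19 led correlation group 8, of which 13 of 14 probe sets were lowest in glioma 8. Ifi202b, an interferon-inducible DNA-binding protein, read 9.23, 8.95, 9.68, 5.28, 8.82, 3.44, 3.22 and 8.81. Cxcl13, a B-cell chemokine, read 11.57, 12.35, 11.29, 11.44, 11.68, 11.27, 6.34 and 10.05 and was 4.47 to 6.79 in forebrain. For Cxcl13 glioma 8 alone lay inside the forebrain range. The homeobox neighbours Irx3 and Irx5, both on chromosome 8, were lowest in glioma 8 at 5.18 and 2.63, against 7.37 to 8.71 and 5.96 to 7.91 in the others. In p53 Nf1KO gliomas H19 was called higher (4.803 ± 0.74 (SE), adjusted p = 0.0109) and Igf2 was not (-0.36 ± 0.37 (SE), adjusted p = 0.544).

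A gap rule was used to pick out single tumours: a gene stood out when the gap between the extreme tumour and its neighbour in rank, divided by the range of the 8 values, was above Dixon's critical value for 8 values. Of the 500, 53 (10.6%) stood out, beside 5.99% of eligible probe sets. Of these, 29 stood out in glioma 9 (5 high and 24 low), 12 in glioma 8 (6 high and 6 low), 5 in glioma 5, 3 each in gliomas 2 and 7, and 1 in glioma 3. None stood out in gliomas 4 and 6, where 29 and 40 eligible probe sets did. Among eligible probe sets 182 stood out in glioma 8 (1.61%), 129 in glioma 9 (1.14%) and 122 in glioma 2 (1.08%). In gliomas 5, 7 and 3 there were 90 (0.795%), 77 (0.681%) and 9 (0.0795%). Over all eligible probe sets glioma 8 thus had the most, and among the 500 glioma 9. The low genes of glioma 9 were led by Mal2, Kcnc2, Spock3 and Vip. Glioma 5 was low in Clec4n, a C-type lectin of myeloid cells (2.93, others 5.45 to 7.47), in the homeobox gene Prrx1 (5.32, others 7.92 to 9.26), in the zinc finger gene Zfp994 and in Gvin1, a large interferon-inducible GTPase. Glioma 2 was high in elastin (Eln, 9.30, others 5.38 to 6.53), and glioma 3 was low in the ribosomal protein Rpl17 (6.67, others 9.15 to 10.61), a gene whose probes may also read near-identical copies. The other 2 Prrx1 probe sets had an SD of 0.877 and 0.846 and were not among the 500.

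**Figure D4:**
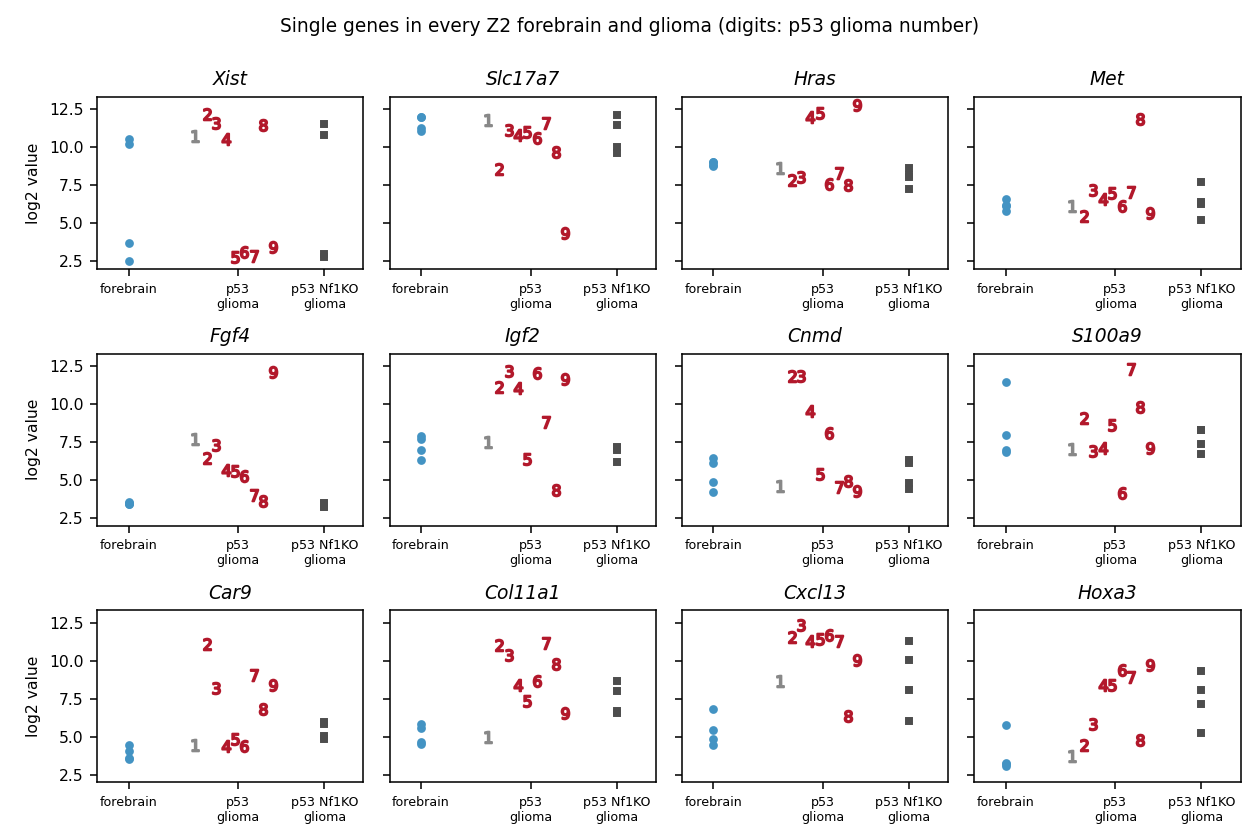
Log2 level of 12 of the variable genes in 4 Z2 forebrains (circles), p53 gliomas 1 to 9 (digits; 1 in grey) and 4 p53 Nf1KO gliomas (squares). Single tumours stand apart: glioma 9 for Slc17a7 and Fgf4, glioma 8 for Met and Cxcl13, and gliomas 4, 5 and 9 for Hras.

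Correlation group 6, with 25 probe sets, was led by Arg1, Car9 and Postn. Its mean was 9.25 in glioma 7, 8.67 in glioma 2, 8.33 in glioma 8 and 7.82 in glioma 9, and 5.80 to 6.73 in gliomas 3 to 6. The forebrains read 4.72 to 5.05 and glioma 1 read 4.80. Car9, carbonic anhydrase 9, which exports acid from hypoxic cells, and Slc16a3, a lactate exporter, are textbook targets of hypoxia-inducible factors. Those factors bind sites with the core ACGTG, so the promoters of the group were read for it, and 2 that hold it are shown from 250 bases before to 50 after the annotated start (RefSeq, GRCm38.p6), with ACGTG or its reverse complement CACGT in capitals. The core overlaps the E-box CACGTG.
Car9, chr4:43506776-43507075, plus strand: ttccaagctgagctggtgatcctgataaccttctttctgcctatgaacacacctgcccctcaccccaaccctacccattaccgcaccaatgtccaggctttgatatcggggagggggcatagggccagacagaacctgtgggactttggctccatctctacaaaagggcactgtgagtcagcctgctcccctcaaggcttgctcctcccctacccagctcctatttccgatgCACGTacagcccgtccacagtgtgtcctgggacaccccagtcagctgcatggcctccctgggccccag
Slc16a3, chr11:120948817-120949116, plus strand: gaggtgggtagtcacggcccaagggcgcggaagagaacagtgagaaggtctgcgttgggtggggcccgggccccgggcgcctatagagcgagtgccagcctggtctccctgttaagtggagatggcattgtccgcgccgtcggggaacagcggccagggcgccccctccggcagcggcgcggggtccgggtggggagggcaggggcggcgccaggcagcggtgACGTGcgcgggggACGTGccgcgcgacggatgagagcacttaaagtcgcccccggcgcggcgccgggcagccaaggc
Of 16 genes of the group with a promoter in the table, 5 held the core on either strand (31.25%), beside 21.8% of 27025 genes with a promoter. The 5 were Car9, Slc16a3, Kdelr3, Pf4 and Tfpi2. Among all variable genes with a promoter the share was 25.5% of 349. Counted by promoter, 5 of 21 in the group held the core (23.8%), beside 19.6% of 32851. The window of Adm, a hypoxia-induced gene of the group, did not hold it. Whether the share of the group differs from these was not tested. The printed letters are a description of the window.

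Car9 read 11.06, 8.16, 4.35, 4.81, 4.39, 9.05, 6.80 and 8.39 in gliomas 2 to 9 and 3.53 to 4.47 in forebrain. It was at forebrain level in gliomas 4 and 6, just above it in glioma 5, and more than 2 above every forebrain in the other 5. Adm, adrenomedullin, a hypoxia-induced peptide, read 8.75, 7.42, 5.34, 6.08, 6.16, 9.49, 7.25 and 8.45 and was highest in gliomas 7, 2 and 9. Arg1, the arginase of alternatively activated macrophages, read 10.03, 3.35, 6.09, 3.90, 3.42, 9.52, 7.84 and 7.58. It was at forebrain level (2.902 to 3.76) in gliomas 3 and 6, just above it in glioma 5, and highest in gliomas 2 and 7. Of 2 receptors of myeloid cells, Clec4d was highest in gliomas 7, 8 and 4, and Msr1 was highest in gliomas 2 and 7, with 7.92, 6.18, 5.44, 4.17, 5.07, 7.12, 6.58 and 6.602. The matrix genes Postn, periostin, and Tnc, tenascin C, were of the same group but peaked in gliomas 8 and 9 in turn, Postn with 7.85, 6.48, 6.19, 6.64, 6.51, 9.73, 11.45 and 7.46 and Tnc with 10.66, 7.80, 8.26, 7.98, 8.69, 10.49, 10.56 and 10.87.

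Of 25 eligible microglia and macrophage markers 2, Arg1 and Msr1, were among the 500, both in group 6, and the mean of the list ran from 8.27 to 9.26 in the 8 tumours against 7.12 to 7.31 in forebrain. Of 19 eligible hypoxia and glycolysis genes 3 were among the 500, namely Car9 and Adm in group 6 and Bnip3 in group 1, and the list mean was highest in gliomas 7 and 2 at 9.38 and 9.28 against 7.98 to 8.58 in the other 6. In group 6, 12 of 25 were called higher in the cis gliomas, beside 22.4% of all probe sets, among them Angpt2, an antagonist of the vessel receptor Tek (1.70 ± 0.27 (SE), adjusted p = 0.000221). In the p53 Nf1KO gliomas 8 of 25 were called higher, beside 5.40%, among them Angpt2 (2.28 ± 0.38 (SE), adjusted p = 0.0154) and Car9 (1.49 ± 0.31 (SE), adjusted p = 0.0298).

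Group 4, with 26 probe sets, was high in glioma 7, which held the highest value for 23 of them. Its mean was 10.3 in glioma 7, 8.67 in glioma 8 and 6.64 to 7.70 in the other 6. S100a8 and S100a9, the calprotectin subunits of granulocytes, varied together: S100a9 read 9.05, 6.87, 7.13, 8.58, 4.13, 12.31, 9.82 and 7.11 and S100a8 9.01, 6.47, 7.09, 8.44, 4.20, 12.04, 10.07 and 7.42. One of the 4 forebrains read 11.41 and 11.32 for these 2 genes, so values near those of glioma 7 occurred in normal tissue. Alas2, the heme enzyme of red cell precursors, was too low on average to be eligible, and read 8.17 in glioma 7 and 3.39 to 4.94 in the others. The part of blood RNA in this group was not tested.

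The group also held growth genes. Hmga2, a chromatin protein of fetal and tumour cells, read 6.67, 5.27, 8.71, 8.07, 7.497, 10.77, 11.26 and 10.04 against 3.65 to 3.86 in forebrain, so every tumour was above every forebrain by more than 1. Ccnd2, a G1 cyclin, read 6.95, 7.64, 9.23, 8.64, 8.86, 11.54, 8.84 and 10.48 and lay above the forebrain range of 8.23 to 8.83 in gliomas 4, 6, 7, 8 and 9. Hmga2 was called higher in both other models, with 4.496 ± 0.53 (SE), adjusted p = 0.00468 in p53 Nf1KO gliomas and 4.94 ± 0.28 (SE), adjusted p = 7.62e-08 in cis gliomas. Timp1, a metalloprotease inhibitor, was also called higher in both (2.91 ± 0.73 (SE), adjusted p = 0.0493, and 1.87 ± 0.56 (SE), adjusted p = 0.0159). Gbp2b, a guanylate-binding protein, ranged from 2.900 in glioma 6 to 9.89 in glioma 8.

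Extracellular matrix divided the tumours in several ways, and of 26 eligible matrix genes 10 were among the 500. Group 7, with 16 probe sets, held cartilage-type matrix and was high in gliomas 2, 7 and 3, with means of 9.58, 9.16 and 8.93 against 5.89 to 7.61 in the rest. Col11a1, a fibrillar collagen, read 11.02, 10.34, 8.40, 7.31, 8.67, 11.15, 9.79 and 6.56 with 4.49 to 5.84 in forebrain, and Acan, the proteoglycan aggrecan, read 9.84, 8.97, 8.74, 6.66, 8.18, 9.45, 7.40 and 4.35. Both were lowest in glioma 9. Hapln1, which links aggrecan to hyaluronan, read 9.91, 8.01, 5.80, 5.77, 5.22, 6.98, 3.95 and 3.76, and Col6a2 read 12.41, 10.61, 9.63, 8.26, 10.01, 11.62, 9.01 and 7.78 beside its chromosome neighbour Col6a1. Rras2, a RAS-related GTPase, followed them with 11.10 in glioma 2 and 11.51 in glioma 3. Col11a1 was called higher in both other models (2.33 ± 0.53 (SE), adjusted p = 0.038, and 2.65 ± 0.89 (SE), adjusted p = 0.0275).

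Group 10, with 12 probe sets, was highest in glioma 2 for all 12, at a mean of 9.63, followed by glioma 9 at 8.26. It held genes of vessels and their coat: Esm1, a secreted product of sprouting endothelium, read 10.29, 8.04, 7.502, 5.06, 4.38, 6.62, 5.78 and 8.15, Col6a3 10.06, 7.28, 6.54, 5.59, 6.06, 7.91, 5.27 and 9.18, and the potassium channel pair Kcnj8 and Abcc9 of pericytes 8.66 and 9.02 in glioma 2. Emcn, an endothelial surface protein, was 1 of 18 eligible endothelial markers and the 1 among the 500, a share near that of all eligible probe sets, and read 8.93, 6.84, 6.16, 5.87, 5.82, 8.01, 5.77 and 7.26. The endothelial list mean was 7.76 in glioma 2 and 6.95 to 7.60 in the others. Of 14 eligible pericyte and fibroblast markers 5 were among the 500, and 2 of these, Kcnj8 and Abcc9, were in group 10. The mean of that list was 8.06 in glioma 2, 7.97 in glioma 7 and 6.83 to 7.32 in the others. In the cis gliomas 1 of the 12, Eln, was called higher, beside 22.4% of all probe sets (0.51 ± 0.17 (SE), adjusted p = 0.0261).

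Group 5, with 25 probe sets, was high in gliomas 2 and 3 and low in glioma 8, with means of 9.20, 8.69 and 5.79. Cnmd, chondromodulin, read 11.86, 11.83, 9.53, 5.42, 8.08, 4.56, 4.93 and 4.28, and 4.18 to 6.41 in forebrain, so 4 tumours were above the forebrain range and 4 were within it. Mrgprf, an orphan receptor, read 9.40, 9.002, 7.18, 5.56, 8.18, 6.22, 3.75 and 5.42 with 3.58 to 4.57 in forebrain. Agt, angiotensinogen of astrocytes, and Ntsr2, an astrocyte receptor, belonged to the group, Ntsr2 with 12.13, 10.60, 11.005, 10.58, 9.88, 8.73, 8.54 and 9.30. Opalin, a myelin protein, read 10.44, 10.24, 8.97, 7.12, 9.82, 8.82, 7.05 and 7.27, which was close to the forebrain range of 8.66 to 10.39 in gliomas 2, 3, 4, 6 and 7 and below it in the others. Of 18 eligible astrocyte markers 4 were among the 500, and of 17 eligible myelin genes 6.

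Genes of position along the body axis formed a further layer. HOX genes, which mark the hindbrain and spinal cord in development, read low in forebrain. Hoxa3 read 4.47, 5.86, 8.40, 8.40, 9.38, 8.95, 4.78 and 9.72 in gliomas 2 to 9 and 3.07 to 5.74 in forebrain, and 5 tumours lay above every forebrain by more than 2. Hoxa4 read 4.54, 5.23, 6.400, 6.36, 8.30, 7.15, 4.36 and 8.31 and Hoxa2 6.88, 3.41, 6.91, 7.52, 7.90, 7.61, 5.76 and 8.93. Gliomas 6 and 9 were highest for all 3 genes, while gliomas 2 and 8 lay low for Hoxa3 and Hoxa4. Hoxa10, which was not among the 500, read 9.13 in glioma 4, 6.42 in glioma 6 and 9.28 in glioma 9, between 2.27 and 4.37 in the other 5, and 9.57 in p53 Nf1KO glioma 3. Of 31 HOX genes 5 were eligible, and 4 of these were among the 500, all of the Hoxa cluster on chromosome 6, and Hoxa2, Hoxa3 and Hoxa4 were called higher in both other models (Hoxa3 3.62 ± 0.92 (SE), adjusted p = 0.0499 in p53 Nf1KO gliomas, 2.11 ± 0.30 (SE), adjusted p = 9.3e-05 in cis gliomas).

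The midbrain and hindbrain homeobox genes En1 and En2 varied without moving as a pair. En1 read 3.80, 7.59, 5.92, 7.86, 7.83, 7.07, 3.27 and 7.21 and En2 read 8.22, 8.99, 4.81, 6.37, 9.75, 7.83, 8.78 and 9.50. Gliomas 2 and 8 were low for En1 and not for En2, and glioma 4 was lowest for En2. Of the forebrain genes, Tbr1 of deep cortical layers read 7.23, 9.25, 9.61, 6.94, 8.30, 9.86, 7.08 and 4.59, and Drd1, the D1 dopamine receptor of striatum, 5.71, 7.98, 10.27, 6.53, 6.596, 8.06, 6.75 and 4.21. Drd1 in glioma 4 was above every forebrain (7.35 to 9.87), and Tbr1 in gliomas 2, 5, 8 and 9 was below every forebrain (8.23 to 10.87). The forebrains themselves spanned more than 2 for both genes, and the part of dissection was not tested. Of 15 eligible forebrain regional genes 6 were among the 500.

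Hras and Hoxa3 belonged to the same correlation group (group 2, 36 probe sets), which also held neuropeptide genes. Its mean was 9.56 in glioma 5, 8.68 in glioma 4 and 5.94 to 7.78 in the others, and glioma 5 held the highest value for 26 of the 36. Cartpt, a neuropeptide of hypothalamus and reward circuits, read 4.27, 5.19, 9.13, 9.92, 5.51, 9.37, 5.30 and 6.53, below the forebrain range of 9.18 to 11.49 in gliomas 2, 3, 4, 6, 8 and 9. In the cis gliomas 17 of the 36 were called lower, beside 22.2% of all probe sets, among them the peptide genes Tac1 and Grp. Only 3 were called higher, beside 22.4%, namely Hoxa3, Hoxa4 and En1.

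Group 3, with 28 probe sets, was lowest in glioma 2 (mean 5.28) and highest in gliomas 9 and 8 (9.17 and 8.67). Lpo, lactoperoxidase, read 5.50, 4.73, 5.76, 6.396, 8.04, 8.24, 10.69 and 10.89, and Pnlip, pancreatic lipase, read 3.58, 5.30, 7.45, 7.40, 7.08, 9.34, 9.76 and 8.85, genes of glands that read 3.72 to 4.94 and 3.62 to 5.09 in forebrain. Gal, the neuropeptide galanin, read 4.77, 5.41, 8.10, 8.43, 7.37, 8.68, 7.36 and 10.63. Lpo and Pnlip were called higher in p53 Nf1KO gliomas (2.93 ± 0.64 (SE), adjusted p = 0.0343, and 4.004 ± 0.61 (SE), adjusted p = 0.0104) and in cis gliomas (3.17 ± 0.90 (SE), adjusted p = 0.012, and 4.43 ± 0.99 (SE), adjusted p = 0.00273). In all, 14 of the 28 were called higher in the cis gliomas, beside 22.4% of all probe sets, and 7 in the p53 Nf1KO gliomas, beside 5.40%.

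The largest spread of all was sex-linked, and Xist belonged to none of the 10 correlation groups. Xist read 12.21, 11.60, 10.51, 2.81, 3.11, 2.87, 11.48 and 3.44 in gliomas 2 to 9, high in 2, 3, 4 and 8 and near the bottom of the scale in 5, 6, 7 and 9. The Y-linked Eif2s3y read 10.14, 9.43 and 9.94 in gliomas 5, 6 and 7, 7.23 in glioma 9 and 2.39 to 2.75 in the other 4. Ddx3y read 8.17, 7.38 and 7.74 in gliomas 5, 6 and 7 and 5.30 in glioma 9. Glioma 9 thus had low Xist with Y-linked levels between those of the other low-Xist tumours and those of the high-Xist tumours.

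On chromosome 7 lay 67 of the 478 named probe sets (14.02%), beside 7.18% of eligible named probe sets. Chromosome 6 held 37 (7.74%, beside 5.09%). The 67 included Hras and its neighbours, Fgf4, Fgf15, Igf2, H19, Igf1r and Slc17a7, which were high in different tumours. Peg12 and Mkrn3, imprinted neighbours, and Olfml1 and Ppfibp2 were further adjacent pairs on chromosome 7 whose profiles correlated above 0.8. Cox8b, a muscle-type subunit of cytochrome oxidase near Hras, read 4.57, 6.14, 8.99, 5.50, 5.97, 4.39, 4.79 and 11.36 and was high in gliomas 9 and 4. In cis glioma 4, 18 of the 500 stood out as high, of which 12 lie on chromosome 7, beside 164 eligible probe sets, of which 65 lie there. Over all cis gliomas 67 of the 500 stood out in 1 tumour (13.4%), beside 12.1% of eligible probe sets.

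The median shift of whole chromosomes was small beside these values. For each tumour and chromosome, the median over eligible probe sets of the log2 value minus the median of the 8 tumours was taken. Of 160 such values 2 were beyond 0.3: glioma 8 lay at -0.48 for chromosome 6 and glioma 9 at -0.44 for chromosome 15. Chromosome 19 in glioma 8 followed with -0.30. Met and its neighbours were highest in a tumour whose chromosome 6 lay lower as a whole, and Mal2, on chromosome 15, was lowest in the tumour with the lower chromosome 15. The part of these shifts in the values of single genes was not tested.

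**Figure D5:**
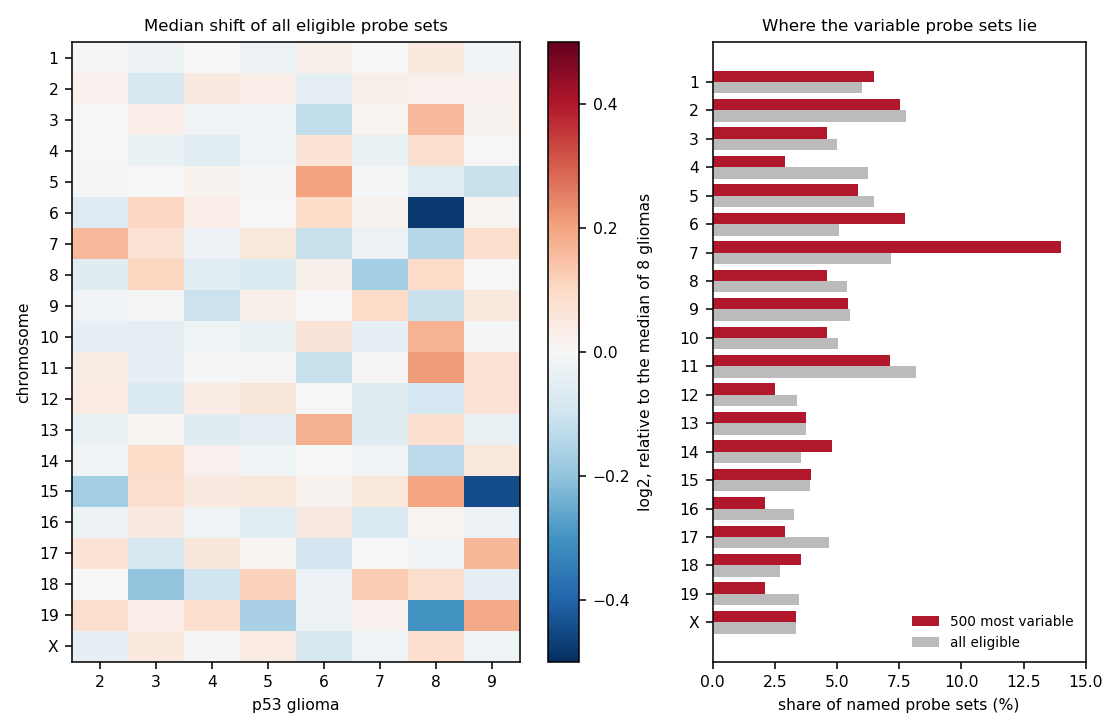
Left, the median over named eligible probe sets of each chromosome of the log2 value minus the median of the 8 p53 gliomas, by tumour. Each tumour's median over all chromosomes was subtracted. Right, the share of the named variable probe sets and of all named eligible probe sets on each chromosome. Chromosome 6 in glioma 8 (-0.48) and chromosome 15 in glioma 9 (-0.44) are the darkest fields, and chromosome 7 holds 14.02% of the variable probe sets and 7.18% of all.

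Genes that vary in the p53 gliomas also varied more than most in the other arrays. The median SD of the 500 was 0.872 in the p53 Nf1KO gliomas (eligible probe sets 0.303), 0.701 in the cis gliomas (0.328), 0.422 in Z2 forebrain (0.181) and 0.297 in Z1 forebrain (0.156). The 500 most variable probe sets chosen in the same way in the p53 Nf1KO gliomas shared 151 (30.2% of either list), where that list is 4.44% of its eligible probe sets. Those of the cis gliomas, with the mean minimum set at the same quantile, shared 103 (20.6%, beside 4.42%), and 31 were in all 3 lists. Of the 226 in group 1, 76 were in the p53 Nf1KO list and 25 in the cis list.

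Whether the groups hold together elsewhere was measured in the 9 cis gliomas. The median correlation between members of group 1 was 0.870 in the 8 p53 gliomas, which defined it, and 0.421 in the cis gliomas. Over all pairs of eligible probe sets it was 0.016 in the cis gliomas. Pairs of the 500 as a whole were not measured. It was 0.394 for group 7, 0.377 for group 6, 0.353 for group 10 and 0.345 for group 8, and between -0.073 and 0.1197 for groups 2, 3, 4, 5 and 9. The genes of a group share arrays, so these are descriptions.

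One pair per group, the 2 genes with the largest SD, was tested in the 9 cis gliomas by an exact two-sided permutation test, adjusted over the 10 pairs. Esm1 and Col6a3 correlated at r = 0.949 (adjusted p = 0.00179) and rho = 0.95 (adjusted p = 0.00353), and at r = 0.889 without the 2 arrays farthest from the median of Esm1. Mal2 and Kcnc2 correlated at r = 0.906 (adjusted exact p = 0.00981), with rho = 0.717 (adjusted exact p = 0.0922) and r = 0.838 without 2 arrays. Without cis glioma 2 or 6 the adjusted p of Mal2 and Kcnc2 was 0.0513 and 0.0595. Fmod and Hapln1 gave r = 0.864 (adjusted exact p = 0.0462) but rho = 0.0833 (0.948), and r = -0.813 without the 2 farthest arrays, so the relation rests on those arrays. For Gbp2b and S100a9 r was -0.514 (adjusted exact p = 0.426) and rho was -0.833 (adjusted exact p = 0.0413), opposite in sign to their shared profile in the p53 gliomas. The other 6 pairs, Hras with Cartpt, Lpo with Pnlip, Cnmd with Mrgprf, Arg1 with Car9, Igf2 with Ifi202b and Met with St7, had r between -0.422 and 0.411 and did not pass by r or rho. Of these, Igf2 with Ifi202b had rho = 0.75 (adjusted exact p = 0.085). Without the 2 farthest arrays r was 0.734 for Igf2 with Ifi202b and 0.603 for Lpo with Pnlip. It ran from -0.344 (Hras with Cartpt) to 0.223 (Arg1 with Car9) for the rest.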

How the data were processed

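Total RNA of 32 arrays was labelled as biotin cRNA and hybridised to Mouse Genome 430 2.0 arrays with custom probe-set definitions, per the labels' protocols. The authors deposited normalized log2 values of 18328 probe sets per array. The summarisation and normalization behind them are not given in the sources used here, and the number of arrays limits the precision. A second deposited table of log2 values was not used for results. Groups came from the labelled genotypes. Probe sets were named through the deposited gene identifiers and RefSeq (GRCm38.p6), which gave exactly 1 gene for 17226.

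The members and lists were chosen with earlier results of these data known. Variable probe sets, average linkage groups and gap rules were computed in Python 3.11.15 (pandas 2.3.3, scipy 1.17.1). Differences were fitted with limma 3.58.1 in R 4.3.3 on the 2 groups compared, with Benjamini-Hochberg adjustment over all 18328 probe sets, and were tested on simulated data. Named genes were, by rule, the 20 members with the largest SD, 5 per correlation group, 5 single-tumour members per tumour, up to 4 per list, runs of neighbours and the 3 on either side of the threshold. Other genes were named after their values were seen. Alternatives covered normalization, filter, threshold, linkage and arrays left out.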

Additional observations from a re-analysis of the deposited data

Results flagged for a closer look

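For 45 genes named in the text, the gap between the extreme array and its neighbour, divided by the range, was compared with Dixon's critical value in the p53, p53 Nf1KO and cis p53/Nf1 gliomas. Of 135 such sets 31 exceeded it, 14 in p53, 4 in p53 Nf1KO and 13 in cis gliomas. Chance flags about 1 in 20 such sets of independent values, but 5.99% of eligible probe sets in the p53 gliomas and 12.1% in the cis gliomas exceeded it, the p53 values chose the genes, and most of the cis sets are of cis glioma 4, so these counts are descriptions.

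In p53 glioma 9 the neuronal genes stood low, with ratios of 0.697 for Mal2, 0.67 for Kcnc2, 0.594 for Spock3, 0.622 for Vip, 0.582 for Slc17a7 and 0.532 for Sst, and Fgf4 stood high at 0.568. In p53 Nf1KO glioma 4 Mal2 (0.83), Calb1 (0.939) and Sst (0.842) stood low, and Arg1 stood high in p53 Nf1KO glioma 3 (0.855). In p53 glioma 8 Met (0.729) and St7 (0.744) stood high and Cxcl13 (0.617) and Irx5 (0.631) low. Lrrc56 stood high in p53 glioma 5 (0.537), Igf1r in p53 glioma 7 (0.583) and Eln in p53 glioma 2 (0.707).

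In cis glioma 4 Hras (0.853), Rnh1 (0.699), Lrrc56 (0.719), Rassf7 (0.878), Deaf1 (0.838), Tmem80 (0.796), Igf2 (0.797) and Mrgprf (0.859), all on chromosome 7, stood high, as did Hapln1 (0.77), and Lpo stood low (0.541). Fgf4 also exceeded the critical value there (0.499), but read 6.38 against 6.02 to 6.20 in the other cis gliomas and at most 6.43 in Z1 forebrain. Igf1r stood high in cis glioma 8 (0.532) and Car9 in cis glioma 1 (0.503).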

How the results depend on the processing

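Of 231 values under alternatives, 189 were labelled the same. For a count this means within a fixed ratio of the main count. For the correlation of a pair it means that the call did not change, and this includes pairs that were never called. In p53 Nf1KO gliomas the 44 higher calls became 26 with all 6 groups in 1 fit, 6 at adjusted p under 0.01 and 27 with a filter on low values. The 19 lower calls became 0 in limma with all groups (28 at an unadjusted p under 0.05) and 0 at 0.01. Without single arrays they ran from 12 to 68 and from 1 to 87. In cis gliomas the 77 higher calls became 47 with all groups, and the 250 lower calls 165 with the filter; without single arrays they ran from 57 to 82 and from 239 to 258. Same-numbered arrays deviated together for some numbers and not for others (correlations -0.108 to 0.367), so the numbers were not taken to pair samples; a replicate block gave 32 higher and 13 lower calls in p53 Nf1KO and 106 and 262 in cis gliomas. Of the 500, 303 were kept at a mean of at least 7, 324 with the median absolute deviation, and 367 to 473 without single tumours. Complete linkage placed 258 in groups (main setting 421) and kept 136 of the 226 probe sets of group 1 together. Without single tumours these were 444 to 470 and 179 to 219. On the linear scale 121 genes stood out instead of 53. With 1000 probe sets 231 instead of 151 were shared with p53 Nf1KO gliomas. Without single cis gliomas 1 to 3 pairs passed, Fmod and Hapln1 passed in none, and r of Lpo and Pnlip ran from -0.771 to 0.812, turning positive without cis glioma 8. The cause was not tested. Leave-one-tumour-out grouping, the repeat of the largest group and the choice of members on chromosome 7 were added after seeing the data.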
